A study of Ovis aries with 20 samples.

Results

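Genes of the unfolded protein response and of secretion from the endoplasmic reticulum (ER) were followed in the developing sheep trachea. A list of 40 genes was chosen by name, and rows for 38 of them were found among the 24478 genes of the 2 count tables. CRELD2 and SSR1 were not matched and are not analysed here. The 38 genes hold 8 luminal chaperones and cochaperones, 4 disulfide isomerases, 2 lectin chaperones, 9 degradation factors, 4 stress sensors, 6 transcription factors, 2 feedback genes of the PERK branch and 3 genes of translocation and ER exit. All 38 passed the filter on low counts, which kept 20097 genes.

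RNA was taken from frozen tracheal tissue, labelled epithelial, of wild-type sheep (WT, labelled healthy) and of sheep of a cystic fibrosis model (CF) at days 65, 80, 100, 120 and 147, the last being birth. Each of the 10 groups of genotype and age had 2 samples, so there were 20 libraries, and no treatment was named. The labels name no CFTR allele, and nothing in them says how the CF animals were made. Both WT day 100 samples carry 1 identifier and so do both CF day 147 samples, so these pairs may each be 1 animal. A WT day 65 sample and a CF day 100 sample, each replicate 2, also share an identifier although their genotypes differ. P-values therefore measure only the spread between the samples deposited. CFTR itself was counted in all 20 libraries, at 10.2 to 37.8 CPM (counts scaled to a common library size) in WT and 4.30 to 37.1 in CF, ranges that overlap and do not check the genotype.

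Proteins bound for secretion or the cell surface enter the ER through the SEC61 channel, are folded by chaperones such as BiP and by disulfide isomerases, and leave in COPII vesicles. Chains that fail to fold are drawn back out and destroyed, which is ER-associated degradation. When unfolded chains build up, the sensors IRE1, PERK and ATF6 start the unfolded protein response, which slows translation and raises chaperone and degradation genes through XBP1, ATF4 and ATF6. Mucus-making goblet cells and the submucosal glands of the airway carry a large secretory load, and goblet-type epithelia also use a second IRE1, encoded by ERN2.

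Total counts ran from 42372433 to 87651829 per library, and CPM are scaled by the trimmed mean of M-values. The label of epithelial tissue holds in part: 22 epithelial markers summed to 1812 to 11160 CPM in the 20 libraries, and 20 fibroblast markers to 5147 to 58180. Both WT day 100 libraries had the 2 lowest fibroblast sums, 7452 and 5147 CPM. Markers of a tissue other than the airway were high in 4 libraries, called below the libraries that held other tissue. These markers were of thyroid in WT day 80 replicate 2 (thyroglobulin, TG, 106000 CPM), of liver in CF day 65 replicate 2 (ALB 4683 CPM), of skeletal muscle in CF day 80 replicate 1 (ACTA1 5766 CPM) and of thymus in WT day 65 replicate 2 (PRSS16 125 CPM). PRSS16 was also at 77.3 CPM in WT day 80 replicate 2. Skeletal muscle markers also summed to 1268 CPM in WT day 65 replicate 2. Libraries also differed in how far long genes were counted below or above short ones. This was measured as the slope of a gene's log2 deviation on its log2 exon length, which was lowest in WT day 147 replicate 2 (-0.24) and highest in WT day 65 replicate 1 (0.24).

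The 38 genes together took 0.50% to 0.67% of all counts in 19 libraries and 1.21% in the WT day 80 library that held thyroid. Per kilobase of exon, where genes can be compared with each other, calreticulin (CALR) had the highest mean level at 506 CPM per kb. It was followed by HSP90B1, the ER form of HSP90, at 336, the disulfide isomerase PDIA3 at 288, and HSPA5, which encodes BiP, at 205 CPM per kb. ATF4 and XBP1, transcription factors of the response, lay at 171 and 168 CPM per kb. Both were far above the stress sensor ERN1, at 3.17 CPM per kb, and above CREB3L4, at 4.31 CPM per kb. The lowest levels were 0.643 CPM per kb for the degradation gene DERL3 and 0.539 for TRIB3, a brake on ATF4.

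**Figure D1:**
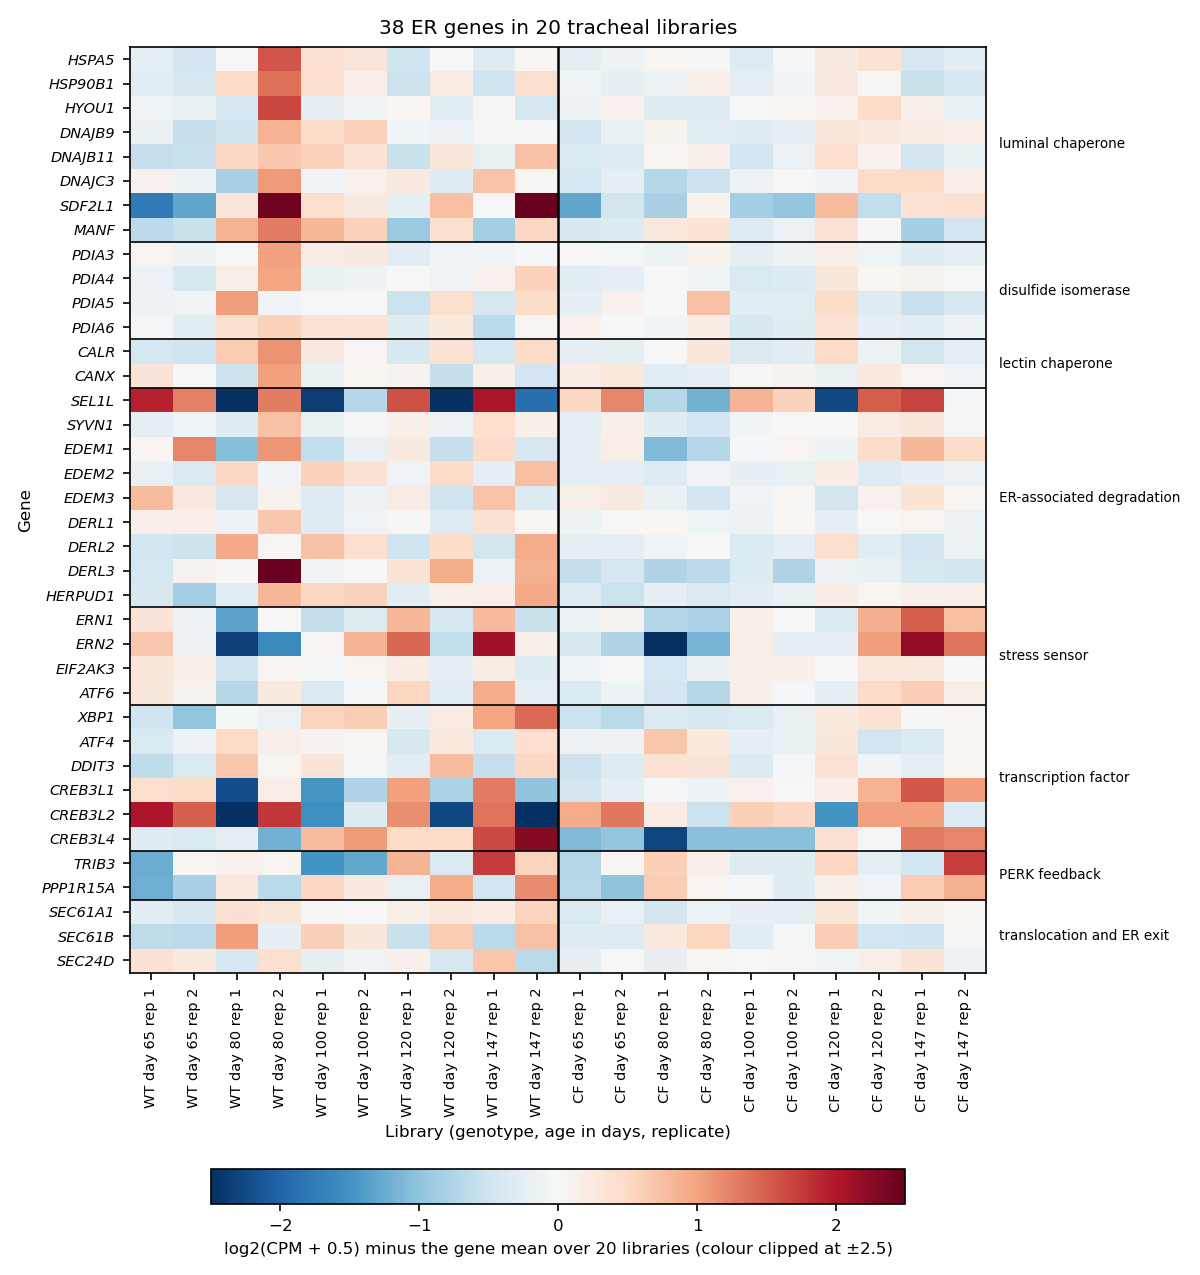
Level of each of the 38 genes (rows, grouped by role) in each of the 20 libraries (columns, WT left of the line and CF right), as log2(CPM + 0.5) with each gene centred on its mean. WT day 80 replicate 2 is high for most chaperones, and SEL1L and CREB3L2 switch between high and low from library to library, also within a group.

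The first comparison asked whether these genes differed between CF and WT over the mean of the 5 ages. CREB3L4, which encodes a membrane-bound transcription factor of the ER related to ATF6, was lower in CF, with a log2 fold change of -0.999 ± 0.20 (SE). Its row lies on chromosome 1, from 102806517 to 102811627 on the plus strand, as the count table positions it. The sources used here do not name the build. CREB3L4 was the only one of the 38 that passed, with an adjusted p of 0.0428 in edgeR's quasi-likelihood test (Benjamini-Hochberg over all 20097 genes). Of all tested genes 0.766% passed in this comparison and 0.309% passed with a lower level in CF. At an unadjusted p under 0.05 there were 6 of the 38, all lower in CF, where 4.57% of all genes were lower at that level.

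CREB3L4 stood at 6.25 and 5.85 CPM in WT and at 3.38 and 3.69 in CF at day 65. At day 80 it was at 6.52 and 3.11 in WT against 1.202 and 3.53 in CF, and at day 100 at 13.9 and 16.8 in WT against 3.52 and 3.50 in CF. At day 120 the values were 11.3 in both WT libraries against 10.3 and 7.58 in CF, and at birth 25.4 and 39.4 in WT against 20.04 and 18.9 in CF. Both CF libraries lay below both WT libraries at 4 of the 5 ages, and at day 80 the ranges overlapped. The mean was lower in CF at all 5 ages.

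The CREB3L4 call is close to its threshold. It was past it in 10 of 30 alternative settings, among them DESeq2 with an adjusted p of 8.35e-05, and the adjusted p reached 0.244 once each pair sharing an identifier was summed to 1 sample. Leaving out 1 library ended the call in 15 of 20 cases, all but those without either WT day 80 library, WT day 147 replicate 1 or either CF day 80 library, while the log2 fold change stayed between -1.22 and -0.88 in all 30.

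Fewer cells of a type and less RNA per cell cannot be told apart in tissue samples such as these. CREB3L4 was therefore also set against the summed CPM of the epithelial markers. Per 1000 CPM of those markers it was at 1.24 and 1.603 in the WT day 100 libraries against 0.607 and 0.573 in CF, and at 6.34 and 3.96 in WT at birth against 2.43 and 2.31 in CF. On this ratio both CF libraries again lay below both WT libraries at 4 of 5 ages, with overlap at day 120 instead of day 80. The ratio carries no test, and it covers the epithelium as a whole, not the cell types within it. At day 100 the goblet and mucus markers summed to 4236 and 4181 CPM in WT and 1373 and 1105 in CF. At day 65 the order of the sums was reversed, at 1194 and 1037 in WT and 1803 and 1373 in CF. As the mean log2 deviation of these markers from their gene means, day 100 kept its order (-0.048 and 0.108 in WT, -0.369 and -0.48 in CF). Day 65 overlapped (-0.113 and -0.705 in WT, -0.587 and -0.499 in CF). Single markers differed at day 100. SPDEF was lower in CF, while MUC5B was at 0.148 and 0.285 CPM in WT and 1.61 and 0.889 in CF, and MUC5AC at 0.406 and 0.0228 against 1.08 and 0.489. The part of goblet cells in the CREB3L4 values was not tested.

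XBP1 (chromosome 17, 67735878 to 67740934, minus strand), the transcription factor that IRE1 activates by splicing, had a log2 fold change of -0.39 ± 0.10 over the mean of ages and did not pass (adjusted p = 0.126). The order of the genotypes was not the same at each age. At day 65 it was at 192 and 138 CPM in WT and 188 and 170 in CF, and at day 120 at 238 and 312 in WT and 319 and 351 in CF. At day 80 it was at 267 and 246 CPM in WT against 212 and 206 in CF. At day 100 it stood at 404 and 420 CPM in WT against 213 and 239 in CF, and at birth at 541 and 729 in WT against 268 and 286 in CF. So at days 80 and 100 and at birth both CF libraries were below both WT libraries, at day 120 both were above, and at day 65 the ranges overlapped.

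The XBP1 difference at birth was -1.199 ± 0.24 on the log2 scale, 2.30-fold lower in CF, with an adjusted p of 0.0955. At day 100 it was -0.87 ± 0.23 with an adjusted p of 0.10. DESeq2 called both (adjusted p = 9.46e-06 at birth and 0.00118 at day 100), and the edgeR fit with the length slope as a covariate called the one at birth (0.0138). These fits also called more of all genes. DESeq2 called 408 of 19779 at birth and 1186 of 20221 at day 100, where the main fit called 19 and 294 of 20097. The covariate fit called 294 at birth. Set against the epithelial markers, the day 100 libraries overlapped: XBP1 was at 36.2 and 40.2 CPM per 1000 CPM of markers in WT and 36.9 and 39.1 in CF. At birth they did not, at 135 and 73.3 in WT against 32.5 and 34.8 in CF. The markers themselves summed to 4003 and 9944 CPM in these WT libraries and to 8246 and 8217 in the CF ones. The ratio was also high where the marker sum was lowest, at 117 in CF day 80 replicate 1 (1812 CPM) and 101 in WT day 80 replicate 2 (2446 CPM). The counts do not separate spliced from unspliced XBP1.

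DERL3 had the lowest fitted difference of the 38, and SDF2L1 the next after CREB3L4. DERL3, a channel-type factor of ER-associated degradation known from secretory cells, was counted at very low levels, 0.127 to 1.12 CPM in 9 WT libraries and 7.05 in WT day 80 replicate 2, against 0 to 0.261 CPM in CF. CF day 80 rested on 0 and 2 counts and CF day 100 on 11 and 0. The fitted mean difference of -2.96 ± 0.68 (adjusted p = 0.0713) depends on those near-empty groups and is not a bound. SDF2L1, part of the BiP chaperone complex, had a difference of -0.82 ± 0.36 (adjusted p = 0.416), and 2 WT libraries, day 80 replicate 2 and day 147 replicate 2, stood at 59.3 and 60.8 CPM while the other 18 lay between 2.73 and 18.7.

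Of the 38 fitted differences 34 were below 0, with a median of -0.16, against 49.1% below 0 and a median of 0.01 over all tested genes. By role, all 8 luminal chaperones, all 4 disulfide isomerases, both lectin chaperones, all 9 degradation genes and all 3 genes of translocation and exit were below 0. The 4 above 0 were ERN1 (0.23 ± 0.26), CREB3L1 (0.36 ± 0.35), TRIB3 and EIF2AK3, none past the threshold. Without WT day 80 replicate 2, 26 of 38 were below 0 and the median was -0.09. Without the 4 libraries that held other tissue, 28 were below 0, the median was -0.10 and no gene was called. Scaled by library size alone, 31 were below 0 and the median was -0.09, where the median of all genes moved by 0.06, from 0.01 to 0.07.

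Among the luminal chaperones, HSP90B1 ran from 619 to 2307 CPM in WT (median 1008) and from 604 to 1032 in CF (median 814), with a difference of -0.31 ± 0.17 that did not pass. MANF, a secreted ER stress factor, ran from 36.2 to 172 CPM in WT and 39.1 to 88.9 in CF (-0.36 ± 0.19, adjusted p = 0.517). The CF range of MANF lay inside that of WT, and that of HSP90B1 reached slightly lower. The WT ranges were the wider ones. Both WT maxima were in WT day 80 replicate 2, the library that held thyroid, and the next values were 1216 CPM for HSP90B1 and 127 for MANF. The disulfide isomerases had differences from -0.21 ± 0.13 for PDIA3 to -0.15 ± 0.13 for PDIA6, with SE as large as the spread between them. CANX, the membrane-bound lectin chaperone, was at -0.02 ± 0.18, and its soluble relative CALR at -0.24 ± 0.16.

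Among the degradation genes, EDEM2, which trims sugars of misfolded glycoproteins, had a difference of -0.38 ± 0.14 (adjusted p = 0.318). It ran from 27.2 to 59.4 CPM in WT (median 39.2) and from 27.8 to 39.8 in CF (median 30.1). SYVN1, the ubiquitin ligase HRD1, was at -0.10 ± 0.13 and the channel gene DERL1 at -0.13 ± 0.11. Of the sensors, EIF2AK3, which encodes PERK, varied least, from 24.8 to 43.2 CPM in WT and 26.2 to 42.6 in CF (0.02 ± 0.11). ATF6 was at -0.14 ± 0.19. None of these genes passed.

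**Figure D2:**
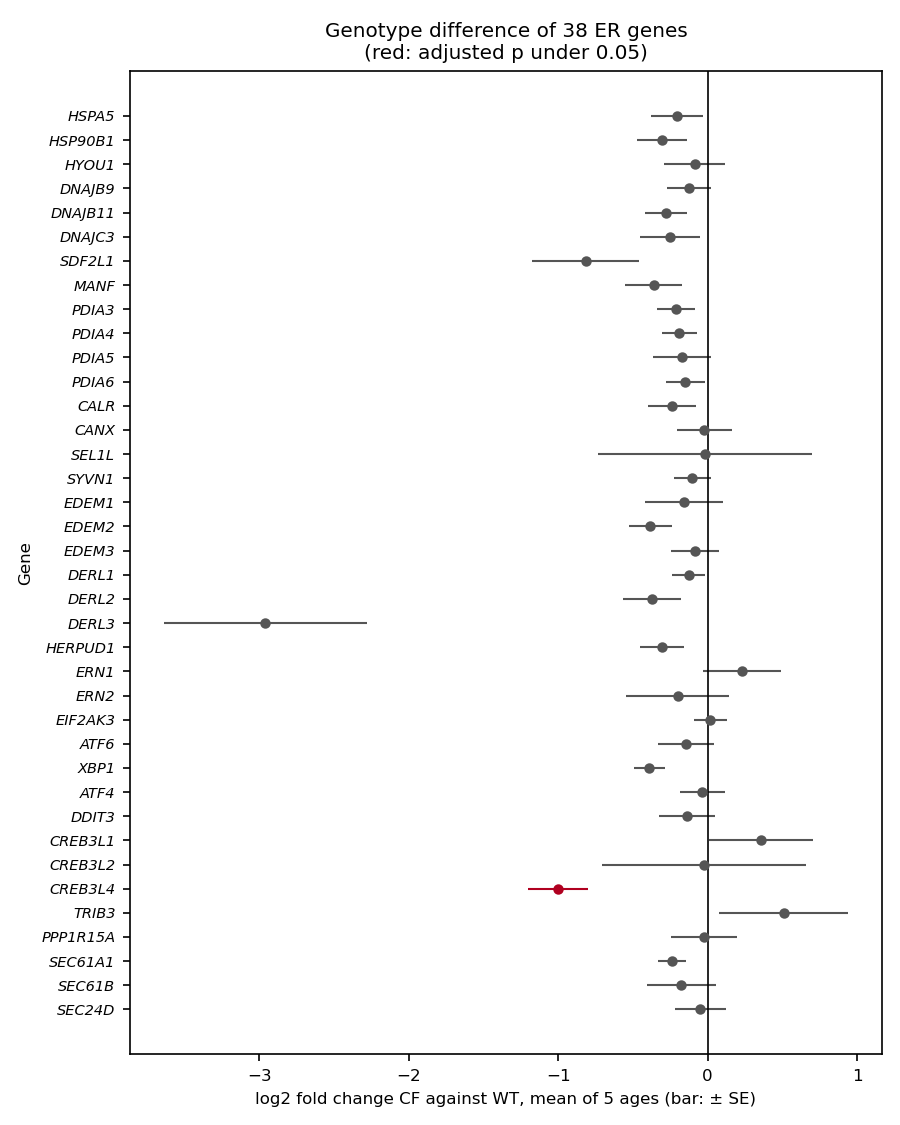
Log2 fold change of each gene in CF against WT, as the mean over 5 ages (points) with its SE (bars), in the order of the heat map. CREB3L4 alone is past the threshold, and most other points lie a little left of 0 with bars that reach or come near it.

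Each age was then compared on its own. At day 65 no gene of the 38 passed edgeR's test, none had an unadjusted p under 0.05, and the median difference was 0.05. Of all genes 0.00995% passed and 3.39% had such a p. The libraries of CF and WT did not overlap for 19 of the 38, 8 above and 11 below, where 23.8% and 23.7% of all genes lay above and below.

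At day 80 again none passed (0% of all genes did) and 12 had an unadjusted p under 0.05. DESeq2 called 2 of the 38, DERL3 and SEC61A1, among 684 of 20221 genes. All 12 were lower in CF, where 4.69% of all genes were lower at that level, among them HSPA5 at -0.96 ± 0.39, HYOU1 at -1.29 ± 0.46 and SEC61A1 at -0.63 ± 0.21. SEC61A1, the channel subunit through which new chains enter the ER, was at 332 and 315 CPM in WT and 184 and 234 in CF, so here both WT libraries were high. CF lay below WT without overlap for 13 of the 38 and above for 1, where 10.8% and 11.5% of all genes did. For HSPA5 and HYOU1 only the thyroid-bearing library was high, and HYOU1 stood at 86.1 CPM in the other WT library against 94.8 and 94.7 in CF. Without the thyroid-bearing library, which leaves 1 WT sample at day 80, the median over the 38 was -0.02 and 20 were below 0. Without the 4 libraries that held other tissue, each genotype was left with 1 library at day 80, so the test says little, and the median moved from -0.56 to -0.14.

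WT day 80 replicate 2 stood apart in the chaperones. HSPA5 stood at 1480 CPM, beside 501 in its partner from WT day 80 and 511 and 507 in CF at day 80. HSP90B1 was at 2307 CPM against 1216, HYOU1, a large HSP70-type chaperone, at 376 against 86.1, and DNAJB9, a BiP cochaperone, at 67.4 against 25.8. In this library 14 of the 38 genes had their highest value of all 20 libraries, where 10.9% of all tested genes did, none had its lowest, where 6.99% did, and 12 were over 2-fold above the median of the other 19 libraries, where 13.3% of all genes were.

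The high levels were not shared by all roles. The median ratio to the other 19 libraries was 2.77 for the luminal chaperones, 2.25 for the lectin chaperones, 1.81 for the disulfide isomerases and 1.69 for the degradation genes. It was 1.07 for the sensors, 1.11 for the transcription factors and 0.811 for the PERK feedback genes. XBP1 was at 246 CPM there, beside 267 in the other WT day 80 library, ATF4 at 315 beside 412 and DDIT3 at 11.7 beside 18.0. Thyroid markers summed to 111000 CPM in this library and to 42.6 to 256 in the other 19, and its epithelial markers to 2446 CPM, the second lowest sum. The part of the thyroid in these chaperone levels was not tested.

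**Figure D3:**
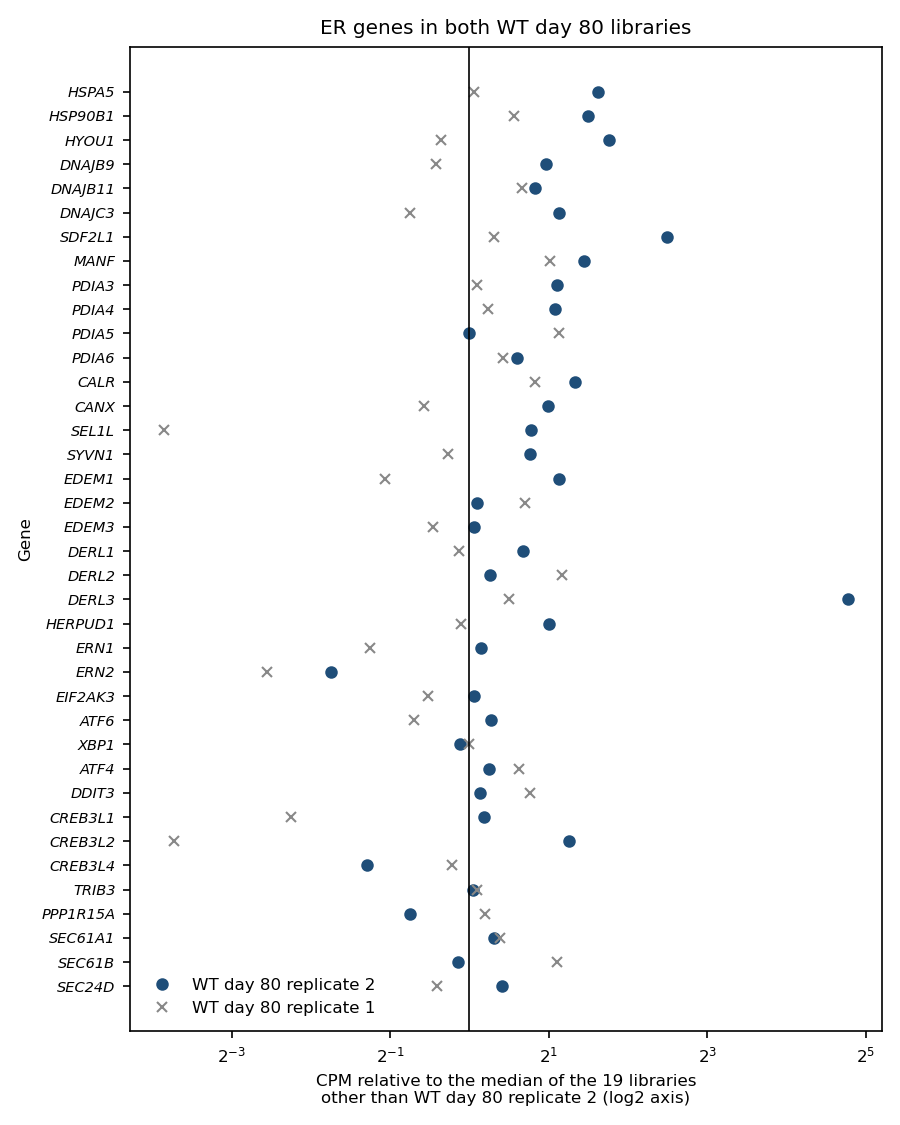
CPM of each gene in WT day 80 replicate 2 (points) and WT day 80 replicate 1 (crosses), divided by the median of the 19 libraries other than WT day 80 replicate 2, on a log2 axis. The points of the chaperones lie to the right, with HYOU1 and HSPA5 well above 2, while those of XBP1, ATF4 and DDIT3 lie near 1.

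At day 100 CREB3L4 was the only gene called, with -2.13 ± 0.47 on the log2 scale, 4.37-fold lower in CF (adjusted p = 0.0424). The length slope was -0.146 and -0.0993 in the WT libraries of this age and 0.0688 and 0.0709 in the CF ones. Genotype and slope therefore cannot be told apart within day 100. Of all tested genes 1.46% passed at this age, 1.40% as higher in CF and 0.0597% as lower. The call was past the threshold in 13 of 30 alternatives, with adjusted p from 0.000161 to 0.335. Both WT libraries here carry 1 identifier, and with them summed no gene was called.

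At an unadjusted p under 0.05 there were 8 of the 38, among them 1 that was higher, TRIB3, and 12.3% of all genes. The other 37 genes spread in both directions at day 100, from -1.91 for DERL3 to 2.45 for TRIB3, with a median over the 38 of -0.32 against 0.12 over all genes. Scaled by library size alone, the median of all genes moved by 0.20, that of the 38 was -0.12, and CREB3L4 was called again. CF lay below WT without overlap for 22 of the 38 and above for 11, where 30.0% and 40.5% of all genes did. Below were DNAJB9, at 50.5 and 54.9 CPM in WT against 29.6 and 31.6 in CF (-0.78 ± 0.33, adjusted p = 0.356), and HERPUD1, at 163 and 170 against 94.1 and 102. Beside these, the epithelial markers summed to 11160 and 10450 CPM in WT and 5791 and 6103 in CF, and the fibroblast markers to 7452 and 5147 in WT and 41720 and 39710 in CF. Of the 20 fibroblast markers 12 passed as higher in CF at this age. Their part in the differences of the ER genes was not tested beyond the ratios given for CREB3L4 and XBP1.

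At day 120 no gene of the 38 passed, none had an unadjusted p under 0.05, DESeq2 called none, and the median was 0.10. Of all genes 0% passed and 1.39% had such a p. CF and WT overlapped for 31 of the 38. CF lay below for 2 (7.61% of all genes) and above for 5 (8.91%). HSPA5 was at 354 and 495 CPM in WT and 578 and 641 in CF at this age, the reverse order of day 100 (647 and 611 in WT, 397 and 481 in CF), and neither difference passed.

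At birth none of the 38 passed in edgeR (0.0945% of all genes did), and 1 had an unadjusted p under 0.05, XBP1, where 7.92% of all genes did. DESeq2 also called that gene alone of the 38, among 408 of 19779 genes. CF lay below WT without overlap for 7 of the 38 and above for 1, where 15.6% of all genes did in each direction. SDF2L1 was at 10.5 and 60.8 CPM in WT and 13.7 and 14.1 in CF, and ERN1 at 40.1 and 15.2 in WT and 65.9 and 38.7 in CF. In each, the 2 WT libraries were further apart than the groups. Markers of the submucosal gland summed to 13150 and 9130 CPM in WT and 8301 and 8395 in CF at birth, and goblet and mucus markers to 5479 and 9062 in WT and 4041 and 4337 in CF, so that CF was lower than WT in both as well. Their part in the XBP1 values was not tested.

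The second comparison asked how the genes differed between day 65 and birth. Over the mean of both genotypes 7 of the 38 passed and all 7 rose, in edgeR's test with adjusted p from 0.000232 to 0.0417. Of all genes 18.6% passed, and 8.77% passed as higher at birth. The 7 were CREB3L4 and XBP1, the chaperone gene SDF2L1, the sensor ERN2, PPP1R15A, HERPUD1 and the channel gene SEC61A1. SEC61A1 was outside the rule for named genes, as are some other members named here, and was added after its value was seen. The median over the 38 was 0.38 on the log2 scale, against -0.03 over all genes, and 29 of 38 were above 0. Scaled by library size alone, the median of all genes moved by -0.28, that of the 38 was 0.07, and 4 were called.

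CREB3L4 rose by 2.44 ± 0.33 on the log2 scale, 5.43-fold, and was the only one of the 38 called in both genotypes, at 2.42 ± 0.47 in WT and 2.46 ± 0.47 in CF. XBP1 rose by 1.29 ± 0.17 over both genotypes and by 1.94 ± 0.24 in WT, 3.85-fold. Its difference in CF was 0.63 ± 0.23, which did not pass (adjusted p = 0.157). The rises of CREB3L4 and XBP1 over both genotypes were past the threshold in all 30 alternatives. That of CREB3L4 alone in WT was lost without WT day 147 replicate 2 or either WT day 65 library, and in CF without any 1 of the 4 CF libraries of day 65 or birth. It was lost in CF as well with the 2 CF day 147 libraries, which carry 1 identifier, summed.

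SDF2L1 rose by 2.34 ± 0.59, from 2.73, 4.01, 4.001 and 7.56 CPM in the 4 libraries of day 65 to 10.5, 60.8, 13.7 and 14.1 at birth. Without WT day 147 replicate 2 the value was 1.48 and no longer called, and the call was also lost without WT day 65 replicate 1 or CF day 65 replicate 1, with summed pairs and with the length slope as a covariate. PPP1R15A, the phosphatase subunit that ends the translation block set by PERK, rose by 1.601 ± 0.35. Its levels were 40.6 and 54.2 CPM in WT and 58.8 and 47.5 in CF at day 65, and 68.0 and 217 in WT and 148 and 177 in CF at birth. HERPUD1, a membrane scaffold of the degradation machinery, rose by 0.89 ± 0.24, and SEC61A1 by 0.55 ± 0.15, from 195 to 226 CPM at day 65 to 264 to 379 at birth. The calls of HERPUD1 and SEC61A1 are near the threshold, past it in 22 and 20 of 30 alternatives, and both were lost without WT day 147 replicate 2, WT day 65 replicate 2, either CF day 65 library or CF day 147 replicate 1. SEC61A1 was also lost without WT day 65 replicate 1 or CF day 147 replicate 2, and scaled by library size alone it had 0.25 and HERPUD1 0.59.

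ERN2, the IRE1 of mucous epithelia, rose by 1.80 ± 0.56, with an adjusted p of 0.0417 that missed the threshold in 13 of 30 alternatives. It was at 30.4 and 16.99 CPM in WT and 14.2 and 10.9 in CF at day 65, and at 83.1 and 21.1 in WT and 89.3 and 48.8 in CF at birth. Between these ages it was lowest at day 80, at 3.33 and 5.86 in WT and 2.73 and 8.16 in CF. In CPM, WT at birth overlapped WT at day 65. For 8 genes all 4 libraries of birth lay above all 4 of day 65, where 12.2% of all genes did: DNAJB9, SDF2L1, PDIA4, HERPUD1, XBP1, CREB3L4, PPP1R15A and SEC61A1. None lay below, where 15.9% did.

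**Figure D4:**
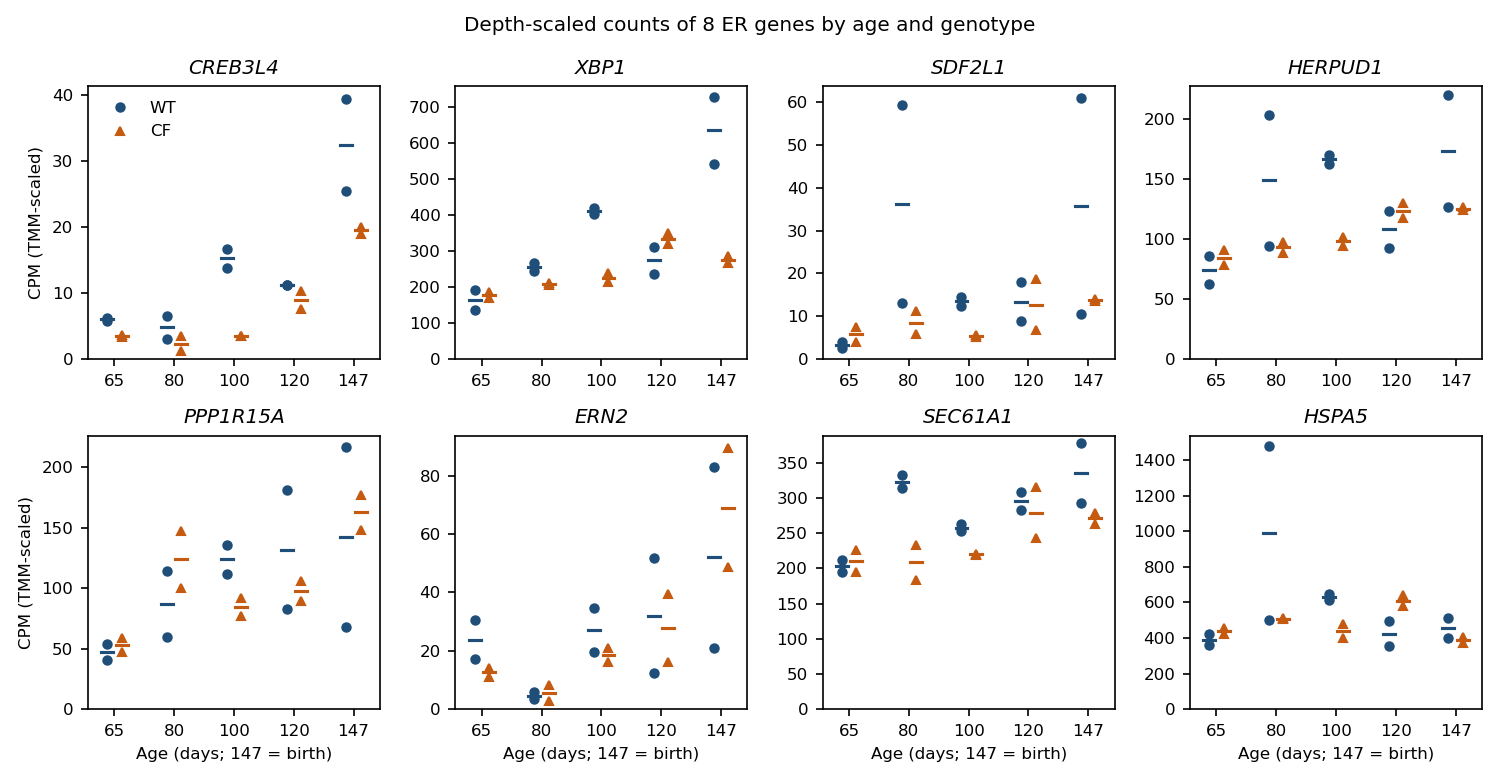
CPM of 8 genes by age in WT (circles) and CF (triangles), with each library as a point and each group's mean as a bar. CREB3L4 and XBP1 are highest in WT at birth, ERN2 is lowest at day 80 in both genotypes, and HSPA5 shows 1 WT library at 1480 CPM at day 80.

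Most of the abundant folding genes showed no change that passed. HSPA5 was at 423 and 358 CPM in WT and 421 and 455 in CF at day 65, and at 398 and 512 in WT and 372 and 406 in CF at birth, a difference of 0.02 ± 0.27 (adjusted p = 0.968). The medians by role were -0.13 for the disulfide isomerases, -0.03 for the lectin chaperones, 0.30 for the luminal chaperones, 0.33 for the degradation genes, 0.58 for the sensors, 0.68 for the transcription factors and 0.45 for translocation and exit. Over all 5 ages, an F test called 3 of the 38, CREB3L4, XBP1 and ERN2 (adjusted p = 0.000339, 0.00166 and 0.00993), where 17.9% of all genes passed.

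In WT alone 4 genes rose, SDF2L1 by 3.41 ± 0.87, CREB3L4, XBP1 and HERPUD1 by 1.22 ± 0.34, where 8.23% of all genes passed and 3.70% rose. In CF alone CREB3L4 rose and no other, where 5.49% passed and 1.78% rose. Without WT day 147 replicate 2, whose SDF2L1 level was 60.8 CPM, the SDF2L1 value in WT was 1.67 and no longer called. It was also lost without either WT day 65 library, and HERPUD1 in WT was called in 12 of 30 alternatives. The difference between the developments, CF minus WT, was called for none of the 38 by edgeR (0.00498% of all genes), and 1 had an unadjusted p under 0.05, where 4.79% of all genes did. That gene was XBP1, at -1.32 ± 0.33 with an adjusted p of 0.669, from 0.00514 in DESeq2 to 1 over the alternatives. The F test of genotype by age called none either (0.0697% of all genes), with 1 at an unadjusted p under 0.05 (7.28% of all genes), again XBP1 (adjusted p = 0.246), which DESeq2 called. In that test DESeq2 called 802 of 19779 genes, where edgeR called 14 of 20097. For the difference of developments DESeq2 called 117 of 19779, where edgeR called 1.

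Some markers of other cell types moved over the same span. Of 16 tested goblet and mucus markers 8 rose, and of 12 submucosal gland markers 7 rose. The goblet markers summed to 1037 to 1803 CPM at day 65 and 4041 to 9062 at birth, and the gland markers to 649 to 2041 and 8301 to 13150. The fibroblast markers summed to 27830 to 58180 CPM at day 65 and 12520 to 31220 at birth, and 9 of 20 fell. Plasma cell markers, also of a secretory cell, summed to 73.4 to 99.2 CPM at day 65 and 23.7 to 80.5 at birth, and none of 7 passed. Of 20 markers of multiciliated cells 14 rose, and of 9 fat cell markers 8 rose. The part of these cell types in the ER gene levels was not tested.

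ATF4 itself and its targets DDIT3 and TRIB3 did not pass edgeR's test between day 65 and birth. DESeq2 called TRIB3 there over the mean of both genotypes, among 5450 of 21104 genes. PPP1R15A, the other feedback gene of the PERK branch, passed as given above, so the branch was not uniform. ATF4, which PERK makes ready for translation, was at 212 to 469 CPM over the 20 libraries, with a CF difference of -0.04 ± 0.15 and a development of 0.17 ± 0.24, neither called. DDIT3, encoding the death-linked factor CHOP, was at 6.996 to 19.4 CPM, with -0.14 ± 0.19 in CF and 0.47 ± 0.30 by birth, neither called. TRIB3 was at 0.111 to 5.22 CPM and its 2 highest libraries, WT day 147 replicate 1 and CF day 147 replicate 2, each had a partner at 2.03 and 0.721 CPM.

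Replicates disagreed most for SEL1L and CREB3L2. SEL1L, the adaptor of the HRD1 degradation complex, was at 1.08 and 26.6 CPM in the WT day 80 pair, 33.0 and 1.48 at WT day 120 and 45.4 and 2.497 at WT day 147. CREB3L2, a factor that raises secretory pathway genes, was at 2.91 and 92.0, 60.9 and 5.13, and 69.1 and 1.37 CPM in the same pairs. The low library was in each pair the one of low length slope. For comparison, the median fold between the replicates of a group was 3.59 for SEL1L, 2.47 for CREB3L2, 1.10 for XBP1 and 1.15 for HSPA5.

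The lowest length slopes were in replicate 1 of WT days 80 and 100 and replicate 2 of WT days 120 and 147. CF day 120 replicate 1 completed these 5 libraries, so the set is mostly WT. In them SEL1L lay at 1.08 to 2.497 CPM and in the other 15 at 4.40 to 45.4. CREB3L2 lay at 1.37 to 9.17 and 18.2 to 110 CPM. No other gene of the 38 lay wholly lower in those 5 libraries, and SEC61B, a small channel subunit, lay wholly higher, at 162 to 223 CPM against 67.5 to 156. Of all genes 4.24% lay wholly lower and 3.55% wholly higher. CREB3L1 overlapped, at 8.56 to 46.3 against 24.4 to 122 CPM, as did the sensor gene ERN1, at 8.63 to 17.6 against 12.9 to 65.9. CREB3L4 overlapped too, at 6.52 to 39.4 CPM in the low-slope libraries against 1.202 to 25.4. SEL1L has 4119 and CREB3L2 5298 bases of exon. Of the 38, the longest are ERN1 with 8040, SEC24D with 7529, ATF6 with 7199, EDEM3 with 6684 and EDEM1 with 6245, and all 5 overlapped between the low-slope and the other libraries.

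**Figure D5:**
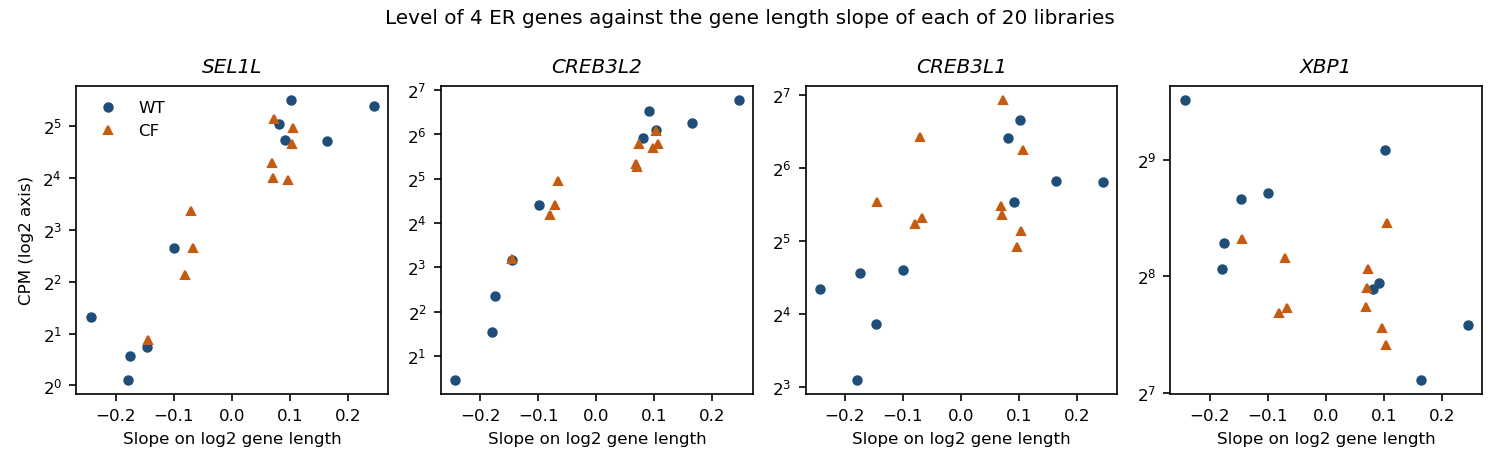
CPM (log2 axis) of SEL1L, CREB3L2, CREB3L1 and XBP1 in each of 20 libraries against that library's slope of log2 deviation on log2 exon length, WT as circles and CF as triangles. SEL1L and CREB3L2 climb with the slope from about 1 to over 40 CPM, while XBP1 does not climb.

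No comparison of SEL1L or CREB3L2 passed, and their values carry SE above 0.6 on the log2 scale: SEL1L had -0.02 ± 0.72 in CF over the mean of ages. With the length slope as a covariate, 17 of the 38 genes rather than 7 were called between day 65 and birth, among them SEL1L, ERN1, ATF6 and CREB3L1. Of all 20097 genes 6069 rather than 3745 were called there. In CF against WT over the mean of ages the calls went from 1 to 4 (CREB3L4, XBP1, DERL3 and EDEM2). Those of all genes went from 154 to 745. CREB3L4 and XBP1 rose between day 65 and birth with and without the covariate. The cause of the slope was not tested.

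Other genes of the pathway were taken from 6 lists with 168 genes, of which 162 were tested. In CF against WT over the mean of ages 1 of the 162 was called, VLDLR, a lipoprotein receptor listed as a stress target, which was higher (0.57 ± 0.10, adjusted p = 0.0207). It lay at 12.5 to 28.4 CPM in WT and 27.1 to 38.9 in CF. The median over the 162 was -0.07, with 68.5% below 0. Among other folding genes 84.0% were below 0, among other translocation and glycosylation genes 83.3%, and among 15 genes of collagen folding 13.3%.

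Between day 65 and birth 24 of the 162 passed (14.8%), 11 higher and 13 lower, where 18.6% of all genes passed. Of 25 other folding genes 2 rose: AGR2, the isomerase of mucus cells, by 2.47 ± 0.57, from 91.6 to 166 CPM at day 65 to 386 to 1473 at birth, and TXNDC11 by 0.58 ± 0.17. Of 36 translocation and glycosylation genes SEC11C, a subunit of the signal peptidase, rose by 2.09 ± 0.35, and UGGT2 and SEC61A2 fell by 1.12 and 0.56. Of 18 other degradation genes HM13, the signal peptide peptidase, rose by 0.89 ± 0.17. Of 36 transport genes SAR1B, SEC23B and KDELR3 rose by 0.76, 0.64 and 0.48, and SEC23A, the other form of that COPII coat subunit, fell by 1.199 ± 0.22.

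Of 32 other stress genes 4 rose and 4 fell. ATF3 rose by 3.88 ± 0.58, with 246 CPM in WT day 147 replicate 2 and 269 and 181 in CF at birth but 25.6 in WT day 147 replicate 1, beside 10.2 to 13.0 at day 65. CEBPB rose by 1.29 ± 0.36 and SESN2 by 0.97 ± 0.19. CREB3L3, a liver gene, fell, and was at 11.01 CPM in the CF day 65 library that held liver and at most 0.656 in the other 19. PHGDH fell by 0.85 and MBTPS1, the site-1 protease that cuts ATF6, by 0.60. Of the 15 collagen folding genes 6 fell and none rose, P4HA3 by 1.40 ± 0.34, FKBP9 by 1.25 ± 0.15 and FKBP10 by 1.23 ± 0.28 the most. At day 100, 3 of these 15 were higher in CF, FKBP10 (1.85 ± 0.40), the collagen chaperone gene SERPINH1 (1.09 ± 0.25) and CRTAP (0.82 ± 0.18), at adjusted p of 0.0424, 0.0486 and 0.040, beside the fibroblast sums given above.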

How the data were processed

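Total RNA from frozen tracheal tissue of 20 sheep samples was sequenced. The submitters' processing notes name STAR 2.6 and featureCounts 1.6.3. The authors deposited whole, unnormalized counts, in a WT and a CF table, which were used as they stand. The sources used here give neither genome build nor strand setting, so overlapping genes cannot be told apart. Even numbers made up 70.7% to 85.3% of the small counts (1 to 20) of each library, as when both reads of a pair are counted. Of 8432 genes without a symbol, 501 were named from a RefSeq table (assembly ARS-UI_Ramb_v3.0). No 2 replicates agreed within sampling noise.

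Genes were filtered with filterByExpr, scaled by TMM and tested with edgeR 4.0.16 in R 4.3.3 (glmQLFit with robust estimation, glmQLFTest, 1 coefficient for each of 10 groups, adjusted p threshold 0.05). SE were taken as log2 fold change over the square root of F. Samples were grouped by title. DESeq2 1.42.0, scaling, filters, the replicate block, summed pairs and left-out libraries were alternatives. The edgeR step was tested on simulated data. The members and lists were chosen with earlier results of these data known. The rule for named genes took those called between genotypes, the 6 largest rises in development, 12 key genes, and up to 3 genes per list and direction of the other lists. Further members, such as HSP90B1, MANF and EDEM2, are named outside that rule. The length slope is the slope of log2 CPM, centred by gene, on log2 exon length.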

Additional observations from a re-analysis of the deposited data

Results flagged for a closer look

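In each genotype's 10 libraries, which mix ages, the highest and lowest value of each gene were compared with the nearest other one. Of 76 such sets 13 held a library far from the rest by Dixon's criterion. Its nominal rate of about 1 in 20 holds for independent draws from 1 normal population. These sets mix ages and share libraries, so the 13 cannot be set against that rate. In WT day 80 replicate 2, the library that held thyroid, this was so for 6 genes: HSPA5 at 1480 CPM (next 647), HSP90B1 at 2307 (1216), HYOU1 at 375.8 (122), PDIA3 at 949.8 (545), CANX at 727.8 (447) and DERL3 at 7.05 (1.12). All 6 encode folding or degradation proteins.

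In WT day 80 replicate 1 PDIA5 stood at 63.84 CPM. CF day 120 replicate 1 had EDEM2 at 39.77 and DERL2 at 71.2, and CF day 120 replicate 2 had HYOU1 at 160.9 CPM. At birth ERN2 stood at 89.3 in CF replicate 1, and TRIB3 at 5.215 in WT replicate 1 and 5.168 in CF replicate 2.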

How the results depend on the processing

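Counts of the 38 genes called are given with the alternative that moved them. CF against WT over the mean of ages (1) gave 0 with library size alone, summed pairs, the replicate block, without the 4 libraries holding other tissue and without the 5 of lowest length slope, 3 with DESeq2 and 4 with the slope covariate. Day 80 (0) gave 2 with DESeq2 and 16 without the 5 low-slope libraries, which leaves WT day 80 with the thyroid-bearing library alone. Day 100 (1) gave 2, and 0 with the block, summed pairs or without the low-slope libraries. Day 147 (0) gave 1 with DESeq2 and 2 with the covariate. WT development (4) gave 7 with DESeq2, 2 with summed pairs or without the other-tissue libraries, and 9 with the covariate. CF development (1) gave 4, 0 with summed pairs, 10 with the covariate and 6 without the low-slope libraries. Over both genotypes (7) it gave 4 with library size alone, 3 with summed pairs or without other tissue, 17 with the covariate and 11 without low-slope libraries. The F test over ages (3) gave 5, 12, 1, 17 and 22 with library size alone, DESeq2, no other tissue, the covariate and no low-slope libraries. The difference of developments (0) gave 1 with DESeq2, and so did the interaction (0). Without low-slope libraries the interaction gave more, as over all genes. The counts over all tested genes moved as well. Over the mean of ages they were 154 of 20097 in the main fit, 809 of 19779 with DESeq2 and 745 with the covariate. In the same order they were 3601, 6917 of 20663 and 7498 for the F test over ages. For development they were 1654, 4021 of 19779 and 3297 in WT, and 1104, 2369 of 20221 and 3684 in CF. In the main fit and with DESeq2 they were 0 and 684 of 20221 at day 80, and 294 and 1186 of 20221 at day 100. They were 19 and 408 of 19779 at birth, with 294 of 20097 with the covariate. For the difference of developments they were 1 and 117 of 19779, and for the interaction 14 and 802 of 19779. Fits that left 1 sample in a group also moved them. Where the text names no cause, the cause was not tested.

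Leaving out 1 library gave 0 to 2 calls over the mean of ages, 0 to 5 at day 80, 0 to 2 at day 100, 1 to 9 in WT development, 0 to 2 in CF, 3 to 10 over both, 3 to 10 over ages and 0 to 1 for the interaction. The highest counts came without WT day 80 replicate 1, except in WT development (without WT day 147 replicate 1, lowest without WT day 147 replicate 2 or either WT day 65 library) and CF development (without either WT day 147 library, 0 without any 1 of the CF libraries of day 65 or birth). Over both genotypes the lowest came without CF day 65 replicate 1, with 4 without WT day 65 replicate 1, WT day 147 replicate 2 or CF day 65 replicate 2. At day 100 the call was kept without either day 80 pair's libraries or either WT day 147 library. Where it leaves 1 sample in a group, that sample is taken to vary like the others. No call changed at days 65 and 120.

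Signs of uncalled CF values turned as follows. ATF4 was 0.0389 with library size alone, where the median of all genes moved by 0.0591, 0.0465 with the covariate, 0.0818 without low-slope libraries and -0.1404 to 0.0397 with 1 library left out. DDIT3 was 0.0012 with the covariate and 0.182 without low-slope libraries, where CREB3L1 was -0.0808 and ERN1 -0.0211. SEL1L was 0.525 without other tissue and 0.0054 with the covariate. With 1 library left out SEL1L ran from -0.6533 to 0.7188, ERN2 from -0.4195 to 0.0758 and DNAJB9 from -0.2428 to 0.0463.

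Replicate numbers did not pair the samples: same-numbered deviations over 45 pairs of groups correlated from -0.588 to 0.733, with 12 over 0.1. The replicate block ended the CREB3L4 calls between CF and WT, over the mean of ages and at day 100, and the other counts stayed within 1.5 times. DERL3 was dropped by the filter of CPM of at least 1 in at least 4 samples.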
